A study of Mus musculus with 79 samples.

Results

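C57BL/6J (B6) and DBA/2J (D2) are the inbred parents of the BXD mouse family, and their quadriceps transcriptomes were set against each other on a chow diet (CD) and on a high fat diet (HFD). The comparison rested on 4 of the 79 arrays of the series, taken as the columns labelled with either parental strain. Each parent had 1 array on CD and 1 on HFD, so each strain had 2 arrays. The 4 arrays were a C57BL/6J CD array, a C57BL/6J HFD array, a DBA/2J CD array and a DBA/2J HFD array. All mice were males of 29 weeks, fasted overnight, anesthetized with isoflurane and perfused, and HFD began at 8 weeks of age. An array held RNA pooled from about 5 animals of a strain and diet, so nothing here shows how single animals of a strain vary. The other 75 arrays came from 40 BXD strains, 35 with arrays on both diets and 5 with CD only. They served to show where the descendants fell between or beyond their parents.

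A recombinant inbred strain is fixed for either parental allele at nearly every position of its genome. Where a sequence variant acts on the gene next to it, the strains of such a family tend to split into a group like one parent and a group like the other. Where many variants act on a gene, the strains tend to spread over and past the interval between the parents. Quadriceps is a mostly fast-twitch limb muscle in which glycolysis, fatty acid oxidation and oxidative phosphorylation supply the contractile apparatus, and its RNA also carries that of vessels, nerve, fat, connective tissue and immune cells.

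Levels are given in the units of the deposited score, which was scaled to a mean of 8.0 and an SD of 2.0 within each array. The score behaves like a logarithm of unknown base, so differences are given in these units and not as folds. The 4 parental arrays came from the same array batch, batch 1. The defining markers of skeletal muscle were near the top of the scale, with a mean level of 14.61 in the C57BL/6J CD array and 14.60, 14.61 and 14.61 in the C57BL/6J HFD, DBA/2J CD and DBA/2J HFD arrays. The label of male animals was met by Ddx3y, a Y-linked gene, at 10.39 to 10.50, and by Xist, which is expressed from the inactive X chromosome of females, at 5.78 to 6.11. Over all probesets the correlation was 0.9842 between the C57BL/6J arrays, 0.9874 between the DBA/2J arrays, and 0.9861 and 0.9872 between the strains on CD and on HFD. The C57BL/6J CD array lay outside the range of the BXD CD arrays at 1976 probesets, against 1293 for the DBA/2J CD array and a median of 1606.5 for a BXD CD array set against the others.

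The strains differed at 447 of 35556 probesets, which is 1.26% of those tested (limma, Benjamini-Hochberg adjusted p below 0.05). Of these, 248 probesets (0.697%) were higher in C57BL/6J and 199 (0.56%) were higher in DBA/2J. Counted with 1 probeset a gene, 290 of 22335 genes (1.3%) were called, 156 with the higher level in C57BL/6J and 134 with the higher level in DBA/2J. The median size of the difference was 0.66 units over the called genes, with a range of 0.29 to 3.19, and 55 of them differed by at least 1 unit. Over all genes it was 0.097 units. All 447 called probesets had the same sign of difference in CD and in HFD, as the call by the mean of both diets favours, and 55.2% of all probesets did. At the threshold, D630028G08Rik lay just inside with an adjusted p of 0.04998 and Polr1a just outside with 0.0504 (limma). The spread was that left within the 37 strains with an array on each diet, which assumes that the parents vary like the BXD strains. Without the DBA/2J HFD array 149 probesets were called and without the C57BL/6J CD array 268, and 114 of the 447 probesets kept their call with each of the 4 parental arrays left out in turn.

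**Figure D1:**
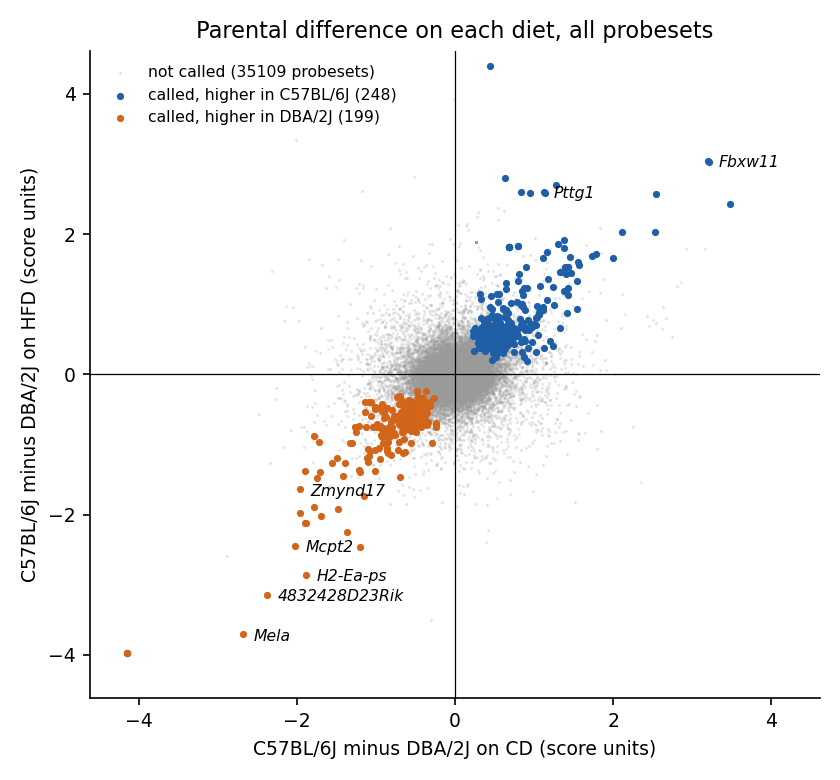
Difference between the parents (C57BL/6J minus DBA/2J, score units) on CD (horizontal axis) and on HFD (vertical axis). Each point is a probeset, with those called higher in C57BL/6J in blue (248), those called higher in DBA/2J in orange (199) and all others in grey, and every called point lies in the quadrant of a shared sign.

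H2-Ea-ps, the class II major histocompatibility (MHC) gene that encodes the alpha chain of the I-E molecule and that is known to be inactive in C57BL/6J, was 6.60 in the C57BL/6J CD array and 6.65 in the C57BL/6J HFD array, against 8.48 and 9.51 in the DBA/2J CD and HFD arrays. Both C57BL/6J arrays lay below the median of 7.87 over all values of the series and both DBA/2J arrays lay above it. The strains differed by 2.37 ± 0.27 units (SE; limma adjusted p = 1.77e-07), and this call was kept without any of the 4 arrays. H2-Ea-ps was the only called member of the 11 class II genes measured. That and the counts of called list members below stand against 1.3% called over all genes. H2-Ab1 and H2-Aa, the chains of the I-A molecule, were higher in C57BL/6J by 0.80 and 0.40 units, with adjusted p of 0.139 and 0.834 (limma). H2-Eb1, the beta chain that pairs with the product of H2-Ea-ps, was higher in C57BL/6J by 0.69 units with an adjusted p of 0.119 (limma). Over the 11 genes the median difference was 0.10 units, and it was -0.01 over all genes.

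Class II genes share a control region just before their start, in which the Y box, an inverted CCAAT box, is bound by the factor NF-Y. The regions of H2-Aa, H2-Eb1 and H2-Eb2 are shown because they carry the element that these genes, which did not pass the test, have in common. They are the 150 bases before the start in the RefSeq annotation of GRCm38.p6, which is the C57BL/6J reference sequence, written 5′ to 3′ along the gene's strand with the Y box CTGATTGG in capitals. H2-Aa lies on the minus strand with its window at chr17:34287824-34287973, H2-Eb1 on the plus strand at chr17:34305717-34305866, and H2-Eb2 on the plus strand at chr17:34325525-34325674.
H2-Aa: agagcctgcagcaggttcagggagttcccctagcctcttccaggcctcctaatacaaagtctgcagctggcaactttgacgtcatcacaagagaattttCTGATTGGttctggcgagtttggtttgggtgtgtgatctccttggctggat
H2-Eb1: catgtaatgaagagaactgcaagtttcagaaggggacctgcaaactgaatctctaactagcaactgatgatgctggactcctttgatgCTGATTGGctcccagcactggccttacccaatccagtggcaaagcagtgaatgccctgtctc
H2-Eb2: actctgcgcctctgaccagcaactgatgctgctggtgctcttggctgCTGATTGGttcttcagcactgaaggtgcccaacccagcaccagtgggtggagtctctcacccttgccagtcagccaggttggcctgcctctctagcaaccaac
The motif began 51 bases before the start in H2-Aa, 62 in H2-Eb1 and 103 in H2-Eb2. On either strand within 250 bases before the start, CTGATTGG was present in 1258 of 32851 windows (3.83%), and in 4 of the 8 class II genes of the list that the RefSeq table covers, H2-Oa being the fourth. H2-Ea-ps is not among the genes covered, so its control region was not searched. H2-Aa was 10.01 and 10.32 in the C57BL/6J CD and HFD arrays and 9.97 and 9.55 in the DBA/2J arrays, H2-Eb1 was 9.73 and 9.91 against 9.36 and 8.90, and H2-Eb2 was 7.47 and 7.39 against 7.45 and 7.22.

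Mcpt2, a protease of mast cell granules, was 5.94 and 6.28 in the C57BL/6J CD and HFD arrays and 7.96 and 8.73 in the DBA/2J arrays. The difference of 2.24 ± 0.32 units (limma adjusted p = 2.01e-05) was the only call among the 15 mast cell genes. Of the other 14 genes, 5 leaned to C57BL/6J and 9 to DBA/2J without a call, with a median difference of -0.04 units and a range of -0.25 for Kit to 0.25 for the tryptase Tpsb2. Kit, the receptor that mast cells depend on, was 7.44 and 7.61 in C57BL/6J against 7.68 and 7.86 in DBA/2J, with an adjusted p of 0.403 (limma), and Tpsb2 was 8.44 and 8.28 against 8.11 and 8.09, with 0.448. The mean level of the mast cell list ranged from 7.08 to 7.10 in C57BL/6J and from 7.25 to 7.26 in DBA/2J, and without Mcpt2 it was 7.160 and 7.162 in C57BL/6J and 7.213 and 7.140 in DBA/2J, where the order of the strains turned between the diets. In such bulk tissue, fewer cells of a type and less RNA per cell cannot be told apart. Ear11, an eosinophil-associated ribonuclease, was 5.67 and 5.71 in C57BL/6J against 7.56 and 7.82 in DBA/2J. It was higher in DBA/2J by 2.00 ± 0.47 units (limma adjusted p = 0.0148), a call lost without any of the 4 arrays, with adjusted p from 0.0608 to 0.284. Ifi202b, an interferon-activated gene of the family that senses nucleic acids in the cytosol, was 5.43 and 4.70 in C57BL/6J against 6.59 and 6.42 in DBA/2J. The difference of 1.44 ± 0.25 units (limma adjusted p = 3.88e-04) was the only call among 28 genes of the interferon response, with 16 genes above and 12 below their DBA/2J level in C57BL/6J. Without the C57BL/6J HFD array its adjusted p was 0.0542. Among 22 genes of MHC class I and antigen processing, H2-Q8 alone was called, higher in DBA/2J by 0.47 ± 0.12 units (limma adjusted p = 0.0292), and it lost the call without the C57BL/6J CD, DBA/2J CD or DBA/2J HFD array.

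Among the genes higher in C57BL/6J, Fbxw11, an F-box protein that selects substrates for the SCF ubiquitin ligase, led with 11.58 and 11.001 in the C57BL/6J CD and HFD arrays. In the DBA/2J arrays it was 8.38 and 7.95. The difference was 3.13 ± 0.26 units (limma adjusted p = 5.63e-11). The other probesets of Fbxw11 did not all share it: 10375123 also differed by 3.13 units, whereas 10375103 differed by 0.05 units with an adjusted p of 0.996 (limma). Pttg1, the securin that inhibits separase, was 10.69 and 9.95 in C57BL/6J against 9.58 and 7.34 in DBA/2J, and its adjusted p of 9.74e-04 became 0.472 without the DBA/2J HFD array (limma). The chemokine cluster that the table names CCL_complex differed by 1.75 ± 0.13 units (limma adjusted p = 1.23e-11). It had 13 probesets, 12 of which were called and some of which hold the same values, and the remaining one differed by 0.66 units with an adjusted p of 0.501 (limma).

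Asb15, an ankyrin repeat protein of striated muscle, was 11.64 and 11.88 in C57BL/6J against 10.19 and 10.20 in DBA/2J, a difference of 1.56 ± 0.16 units (limma adjusted p = 6.20e-09). Mybph, a myosin-binding protein of the thick filament, was 10.89 and 11.20 in C57BL/6J against 9.50 and 9.67 in DBA/2J. Actc1, the alpha actin of heart and of developing skeletal muscle, was 12.65 and 12.35 against 11.49 and 10.60. The call of Mybph (adjusted p = 0.00867) was lost without any of the 4 arrays, with adjusted p from 0.0589 to 0.171, and that of Actc1 (adjusted p = 0.00521) without the C57BL/6J CD (0.128) or the DBA/2J HFD array (0.439; limma). Unc5a, a receptor for the guidance cue netrin, was 9.52 and 9.83 in C57BL/6J against 8.15 and 7.91 in DBA/2J. It differed by 1.65 ± 0.16 units (limma adjusted p = 2.11e-09).

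The remaining genes of this direction were Trim12a, of the tripartite motif family, at 1.86 units, Tmem45b at 1.72, the long terminal repeat LTR_Affy_10568731 at 1.59, Lrrcc1, a centrosomal protein, at 1.58 and the serine peptidase Htra4 at 1.58. Tmem45b was 8.77 in the C57BL/6J CD array, 10.54 in the C57BL/6J HFD array and 7.93 in both DBA/2J arrays, so most of its difference came from HFD. Of the 12 genes, Fbxw11, CCL_complex, Unc5a and Asb15 kept their call without each of the 4 arrays. Trim12a lost it without the DBA/2J HFD array, Htra4 without that or the C57BL/6J CD array, Tmem45b and Lrrcc1 without any but the C57BL/6J CD array, and LTR_Affy_10568731 without any of the 4. The highest limma adjusted p without an array was 0.057 for Trim12a (DBA/2J HFD), 0.509 for Tmem45b (C57BL/6J HFD), 0.315 for LTR_Affy_10568731 (C57BL/6J HFD), 0.172 for Lrrcc1 (C57BL/6J HFD) and 0.164 for Htra4 (DBA/2J HFD).

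Among the genes higher in DBA/2J, Mela, listed as melanoma antigen, was 7.47 and 7.11 in the C57BL/6J arrays and 10.15 and 10.82 in the DBA/2J arrays. The difference was 3.19 ± 0.58 units (limma adjusted p = 6.92e-04), with an adjusted p of 0.055 without the DBA/2J HFD array. Its other probeset differed by 1.03 units in the same direction with an adjusted p of 0.346 (limma). The transcript 4832428D23Rik was 6.96 and 7.20 in C57BL/6J against 9.34 and 10.34 in DBA/2J, a difference of 2.76 ± 0.29 units (limma adjusted p = 1.28e-08). Opn1mw, the middle-wave cone opsin, which is X-linked, was 7.48 and 7.89 in C57BL/6J against 9.44 and 9.87 in DBA/2J. It differed by 1.97 ± 0.28 units (limma adjusted p = 1.52e-05).

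Zmynd17, now named Mss51, a mitochondrial protein of skeletal muscle, was 11.96 and 12.54 in the C57BL/6J CD and HFD arrays and 13.92 and 14.18 in the DBA/2J arrays. Its difference of 1.80 ± 0.16 units (limma adjusted p = 5.09e-10) was kept without each array. Ostn, the secreted peptide musclin, was 8.44 and 8.87 in C57BL/6J against 10.13 and 10.90 in DBA/2J. Its difference of 1.86 ± 0.46 units (limma adjusted p = 0.0262) lost the call without any of the 4 arrays, with adjusted p from 0.104 to 0.346. Rbp7, a cellular retinol-binding protein, was 8.01 and 8.40 in C57BL/6J against 9.72 and 9.80 in DBA/2J (1.56 ± 0.20 units, limma adjusted p = 2.49e-06). Gpr75, a G protein-coupled receptor, was 8.63 and 8.52 against 10.42 and 10.41 (1.84 ± 0.16 units, limma adjusted p = 3.65e-10). The long terminal repeat LTR_Affy_10556018 differed by 1.64 units. Of the 24 genes of both directions, 12 kept their call without each of the 4 arrays. Ear11, Trim12a, Mela, H2-Q8 and the chemokine cluster belong to families of close relatives, whose shares in a signal cannot be told apart here.

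**Figure D2:**
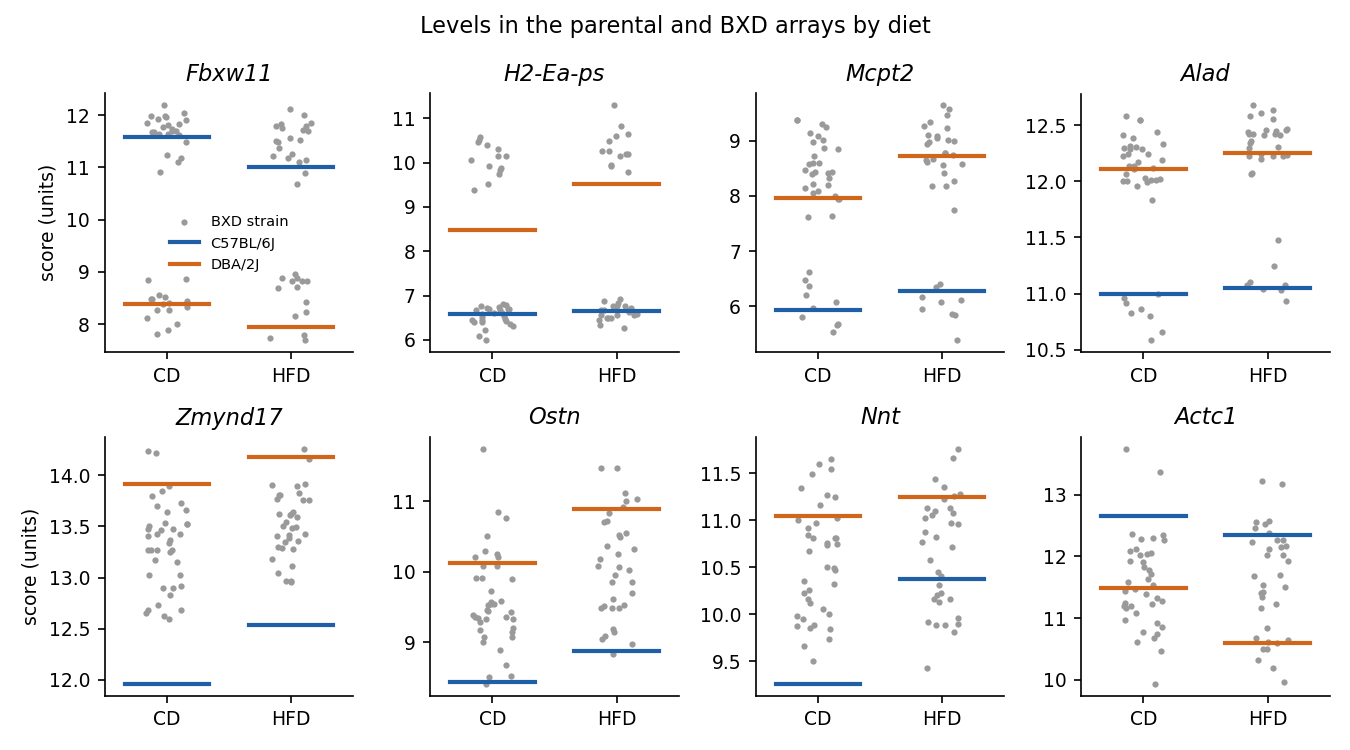
Score (vertical axis, units) of 8 genes by diet, with a blue line for the C57BL/6J array, an orange line for the DBA/2J array and a grey point for each BXD strain (40 on CD, 35 on HFD). H2-Ea-ps, Mcpt2 and Alad have at most 2 strains a diet in the middle 50% of the parental interval and Fbxw11 none on CD but 6 on HFD, whereas Zmynd17, Ostn, Nnt and Actc1 have 7 to 26.

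A list of 15 genes recorded as differing between these strains in expression, protein or sequence held 6 called genes, all higher in DBA/2J, against 0.56% of all probesets called in that direction. H2-Ea-ps and Ifi202b are given above. Alad, the second enzyme of heme synthesis, was 10.995 and 11.053 in the C57BL/6J arrays and 12.11 and 12.25 in the DBA/2J arrays, a difference of 1.16 ± 0.12 units (limma adjusted p = 1.94e-08) that was kept without each array. Nnt, the mitochondrial transhydrogenase that regenerates NADPH and that carries a known deletion in C57BL/6J, was 9.26 and 10.37 in C57BL/6J against 11.05 and 11.25 in DBA/2J. Its difference of 1.33 ± 0.24 units (limma adjusted p = 5.52e-04) lost the call without the C57BL/6J CD array, where it was 0.81 units (adjusted p = 0.228), and another probeset of Nnt, 10407356, differed by 0.02 units with an adjusted p of 0.9997 (limma). Myo5a, the myosin that carries pigment granules and is mutated in the dilute coat of DBA/2J, was 8.05 and 8.36 in C57BL/6J against 8.80 and 9.22 in DBA/2J (0.81 ± 0.17 units, limma adjusted p = 0.00382). Without the DBA/2J HFD array its adjusted p was 0.330 and without the C57BL/6J CD array 0.195. Glo1, the glyoxalase that clears methylglyoxal, was 11.11 and 10.92 against 11.35 and 11.61 (0.47 ± 0.12 units, limma adjusted p = 0.0382), and its other probeset differed by 0.48 units. Its call was lost without the DBA/2J HFD (adjusted p = 0.581), C57BL/6J HFD (0.436) or DBA/2J CD array (0.0682).

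The other 9 genes of that list were not called. Gpnmb, a pigment cell glycoprotein that is truncated in DBA/2J, was 8.19 and 8.82 in C57BL/6J against 7.62 and 7.63 in DBA/2J, with an adjusted p of 0.185 (limma). Ahr, the aryl hydrocarbon receptor, whose protein differs between the strains, was 8.50 in C57BL/6J and 8.84 in DBA/2J on CD and 8.85 and 8.61 on HFD. The sign of its difference turned between the diets, and the mean difference was -0.05 ± 0.13 units (SE; limma adjusted p = 0.998). For Hc, Klrd1, Tyrp1, Tpsab1, Dhtkd1 and Cox7a2l the differences lay between -0.16 and 0.25 units, with adjusted p from 0.806 to 0.999 (limma), and the probesets of Cox7a2l differed in sign.

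Lists of metabolism held 0 to 3 calls each. Among 22 genes of glucose use and insulin signalling, Gbe1, the glycogen branching enzyme, alone was called, at 10.33 and 10.50 in C57BL/6J against 11.20 and 11.10 in DBA/2J (0.74 ± 0.16 units, limma adjusted p = 0.00526). Among 32 genes of glutathione and detoxification, Gsr, which reduces glutathione, was 9.87 and 9.81 in C57BL/6J against 10.44 and 10.39 in DBA/2J (adjusted p = 0.0102), and Gstm2, a glutathione transferase, was 10.84 and 10.65 against 10.14 and 10.08 (adjusted p = 0.0105), so these members moved in opposite directions. Glo1 is the remaining call of that list. Gsr lost its call without any of the 4 arrays, and Gbe1 and Gstm2 without any but the C57BL/6J HFD array, with adjusted p of up to 0.151 (DBA/2J HFD), 0.153 (C57BL/6J CD) and 0.227 (C57BL/6J CD; limma). None of 44 genes of the respiratory chain was called. None of 15 circadian clock genes was called, and 6 leaned to C57BL/6J and 9 to DBA/2J, with a median difference of -0.075 units. The members that leaned most were Dbp and Arntl. Dbp, a clock output factor, was 9.93 and 10.07 in C57BL/6J against 10.53 and 11.06 in DBA/2J (adjusted p = 0.0684), and Arntl, of the activating arm, was 9.77 and 9.66 against 9.30 and 8.84 (adjusted p = 0.0621, limma).

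The C57BL/6J CD array stood near an end of the BXD range in several lists, low in most of them and high in that of glucose use and insulin signalling, where its mean level of 12.81 was above that of 38 of 40 BXD CD arrays. The mean level of 20 genes of fatty acid oxidation was 11.78 in this array against 12.36 in the C57BL/6J HFD array and 12.22 and 12.42 in the DBA/2J arrays, and it was below that of all 40 BXD CD arrays, which ranged from 11.84 to 12.55. All 20 genes were lower in C57BL/6J than in DBA/2J by the mean of both diets, with a median of -0.19 units, but none was called and 12 had the same sign in both diets. Acadl, the long-chain acyl-CoA dehydrogenase, came nearest with a difference of 0.62 units and an adjusted p of 0.112 (limma). On CD the median difference of the list was -0.39 units with 0 of 20 genes higher in C57BL/6J, and on HFD it was -0.05 units with 8 of 20.

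The mean level of 10 genes of slow fibres was 8.77 in the C57BL/6J CD array against 10.33 in the C57BL/6J HFD array and 10.10 and 9.56 in the DBA/2J CD and HFD arrays. Slow myosin Myh7 was 8.17 in the C57BL/6J CD array and 10.61 in the C57BL/6J HFD array, against 10.02 and 8.96 in DBA/2J. The median difference of the list was -1.39 units on CD and 0.87 on HFD, and 8 of the 10 genes changed sign between the diets, the exceptions being Casq2 and Csrp3, which were lower in C57BL/6J on both. None of the 10 was called, Casq2 coming nearest with a difference of -0.76 ± 0.37 units (limma adjusted p = 0.595), and the order on a diet rested on 1 array a strain. The 6 markers of endothelium had a mean level of 9.67 in the C57BL/6J CD array against 10.30, 10.27 and 10.33 in the C57BL/6J HFD, DBA/2J CD and DBA/2J HFD arrays, and 1 of 40 BXD CD arrays was lower. None of these 6 genes was called, Kdr coming nearest with an adjusted p of 0.300 (limma), and 3 had the same sign in both diets. The part of fibre, vessel, nerve and connective tissue content in the low level of fatty acid oxidation genes in that array was not tested. Among markers of other cells of the tissue, no gene of the adipocyte (13), red blood cell (7), connective tissue (10), macrophage (9) or nerve and Schwann cell (6) lists was called. Their mean levels in the 4 parental arrays ranged from 9.62 to 10.50 for adipocytes, 9.03 to 9.50 for red blood cells, 9.87 to 10.16 for connective tissue, 8.85 to 9.09 for macrophages and 8.92 to 9.18 for nerve, all within the range of the BXD arrays. The C57BL/6J CD array was at the low end for connective tissue (9.87) and nerve (8.92), with 3 of 40 BXD CD arrays lower in either list, against 21 and 29 below the DBA/2J CD array. None of the 8 skeletal muscle or 12 fast fibre genes was called.

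**Figure D3:**
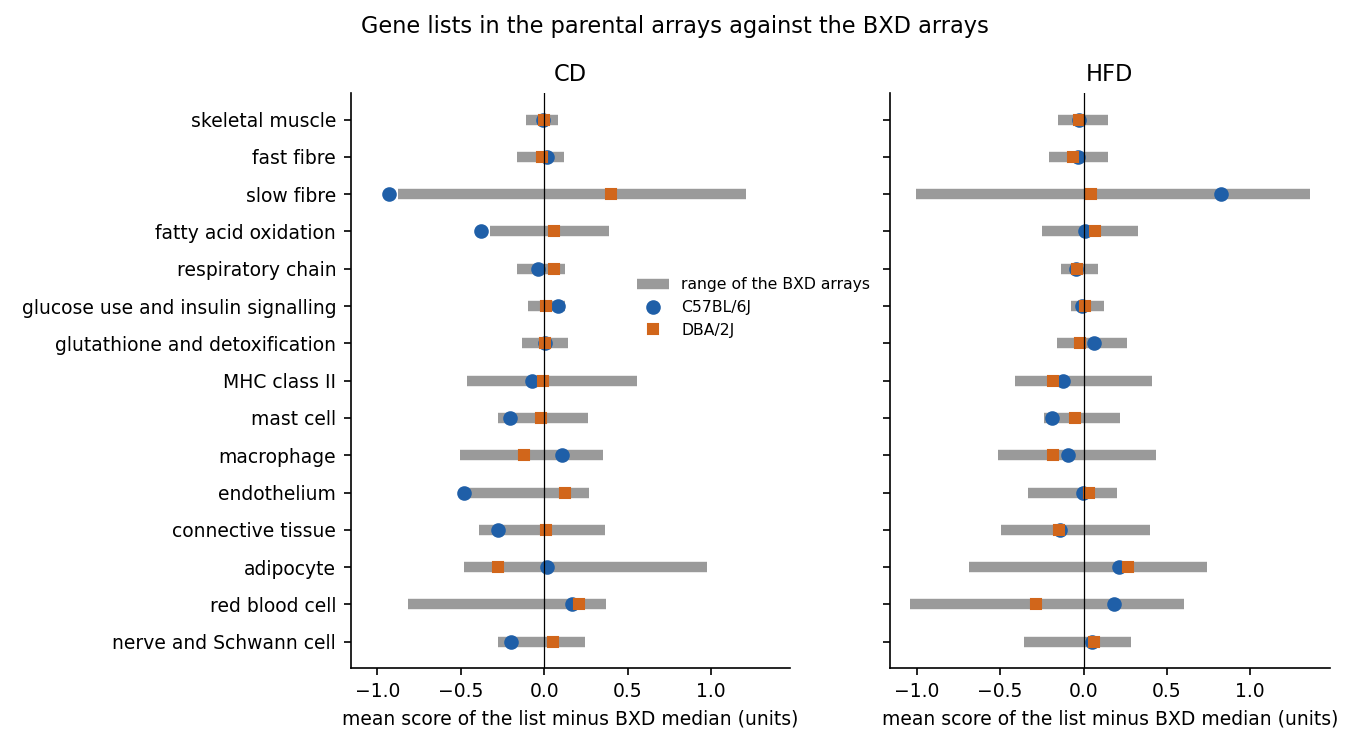
Mean score of 15 gene lists in the C57BL/6J array (blue circle) and the DBA/2J array (orange square), minus the median of the BXD arrays of that diet (score units, CD left, HFD right), with the range of the BXD arrays as a grey bar. On CD the C57BL/6J array lies below the BXD range for slow fibre and fatty acid oxidation genes and at its lower end for endothelium, and on HFD both parents lie within the range in all lists shown.

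Taken by diet, the contrast had 1 array a strain and borrowed its spread from the other strains. It called 114 probesets on CD (0.321%) and 234 on HFD (0.658%). On CD 55 of the calls were higher in C57BL/6J and on HFD 162 were. Of the CD calls 110 had the same sign on HFD, and of the HFD calls 224 had the same sign on CD. The 72 probesets called on both diets made up 63.2% of the CD calls and 30.8% of the HFD calls, and all 72 had the same sign. Fbxw11 differed by 3.20 units on CD and 3.05 on HFD, whereas H2-Ea-ps differed by -1.88 and -2.86 units and Pttg1 by 1.12 and 2.61.

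Whether the parents differed in their response to diet was tested directly. No probeset passed (0%, limma), the smallest adjusted p being 0.684, and 1158 had an unadjusted p below 0.05 where 1778 of 35556 would reach it under no difference. Fam55d, Myog, Ncam2 and Dppa5a were among the 5 genes with the smallest p. Myog, the muscle regulator myogenin, went from 7.87 on CD to 7.02 on HFD in C57BL/6J and from 7.40 to 7.84 in DBA/2J. Fam55d went from 7.82 to 8.39 in C57BL/6J and from 7.83 to 6.72 in DBA/2J. The parents moved in opposite directions in Myog and Fam55d, without passing the test.

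The BXD strains were followed from diet to diet at the genes that differed between the parents. A strain was placed on the side of the parent whose array of the same diet it was nearer to. Of the 35 strains with both arrays, a median of 29 lay on the same side in CD and HFD over the 290 called genes (1.3% of genes), with a lowest count of 12, and a median of 18 did over all genes. All 35 strains kept their side at 30 called genes (10.3%), against 36 of all genes (0.161%). At least 30 strains did so at 131 called genes (45.2%), against 548 of all genes (2.45%). The parental arrays took part in both the call and the sides, so these counts are a description.

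Over the 24 largest differences the number of BXD CD arrays in the middle 50% of the parental interval ran from 0 to 24. Counts between were seen, such as 4 for Asb15, 7 for Gpr75, 12 for Mybph and 16 for Rbp7. The genes that follow had few or none there on CD, and Alad was added from the list of known differences. For Fbxw11, 24 of 40 BXD CD arrays were nearer to C57BL/6J and 16 nearer to DBA/2J, and none lay in the middle 50% of the interval. On HFD 6 of 35 lay in the middle and 10 lay beyond C57BL/6J by more than 2 residual SDs of the fit. All 35 strains kept their side. H2-Ea-ps had 26 CD arrays on the C57BL/6J side, 14 on the DBA/2J side, none in the middle on either diet and 35 of 35 strains on the same side in both diets. All 14 CD arrays on the DBA/2J side lay beyond the DBA/2J array by this margin, at up to 10.58 against 8.48 in DBA/2J. On HFD 10 arrays lay beyond the DBA/2J array of 9.51 by the margin. Alad had 8 CD arrays on the C57BL/6J side and 32 on the DBA/2J side, with none in the middle, and Mcpt2 had 10 and 30 with 2 in the middle, and on HFD 1 array lay in the middle for either gene. In both genes all 35 strains kept their side. The chemokine cluster had 11 CD arrays on the C57BL/6J side and none in the middle, and 1 in the middle on HFD. Mela had 16 CD arrays on that side and none in the middle, but 8 of 35 HFD arrays lay in the middle. For Ifi202b 20 CD arrays were on that side and 2 in the middle, and 1 on HFD.

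A spread over the interval was seen for other genes. Zmynd17 had 38 of 40 CD arrays between the parents and 24 in the middle 50%, and on HFD 34 of 35 and 26. No BXD CD array was as low as the C57BL/6J CD array of 11.96, the lowest being 12.60, and none lay beyond either parent by the margin. Ostn had 31 CD arrays between the parents and 22 in the middle (28 and 17 of 35 on HFD), with a range of 8.41 to 11.75 around parental levels of 8.44 and 10.13. Gbe1 had 37 between and 27 in the middle (26 and 22 on HFD). Actc1 had 18 between and 13 in the middle (23 and 9 on HFD), with 2 CD arrays beyond C57BL/6J and 6 beyond DBA/2J by more than the margin, and 23 of 35 strains kept their side. Nnt had 32 between and 18 in the middle (16 and 7 on HFD), but the C57BL/6J CD array of 9.26 was lower than all BXD CD arrays, whose lowest was 9.50, and 27 strains kept their side. For Pttg1, 18 CD arrays lay below the DBA/2J CD array of 9.58 by more than the margin, down to 7.80, whereas on HFD none lay below the DBA/2J array of 7.34 by the margin, the lowest being 6.999.

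Over the 290 called genes the median count of BXD CD arrays between the parents was 26 of 40, with 13 in the middle 50% and 20 on the C57BL/6J side. Over all genes the medians were 12, 6 and 19. At 158 called genes (54.5%) no BXD strain lay beyond either parent by the margin on the mean of both diets, and at 55.3% of all genes none did. The BXD range was 1.46 times the parental difference at the median called gene and 5.01 times at the median gene. By strain, the share of called genes on the C57BL/6J side ran from 32.4% in BXD56 to 63.4% in BXD96 on CD, and from 45.2% in BXD45 and BXD79 to 70.7% in BXD96 on HFD. The medians were 47.1% and 55.5%. All 35 strains with both arrays had the higher share on HFD, by 1.03 to 16.2 percentage points with a median of 7.59. All strains of a diet were placed against the same parental arrays, and the part of the C57BL/6J CD array in this shift was not tested.

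**Figure D4:**
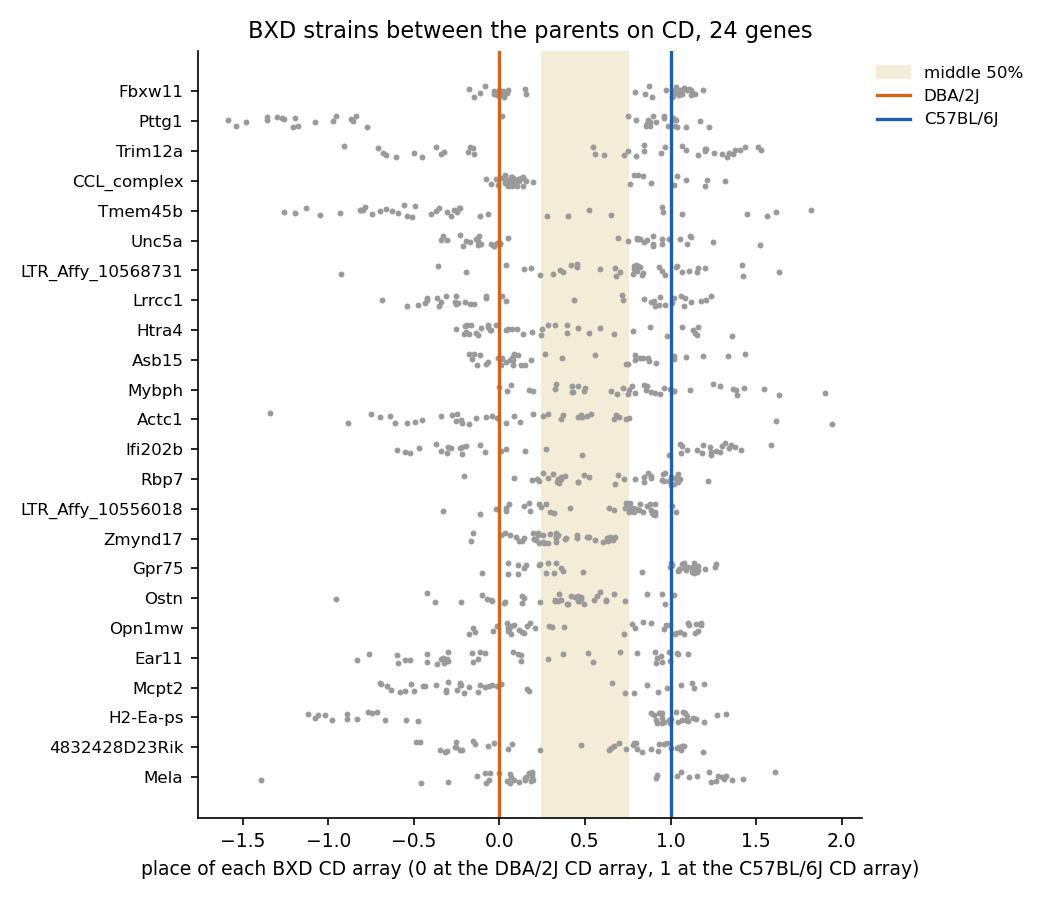
Place of each BXD CD array (grey points, 40 a gene) on a scale with 0 at the DBA/2J CD array (orange line) and 1 at the C57BL/6J CD array (blue line), for the 24 genes with the largest parental differences, those higher in C57BL/6J at the top. Fbxw11, H2-Ea-ps, the chemokine cluster and Mela leave the shaded middle 50% empty, whereas Zmynd17 and Ostn fill it, and the other genes lie between these. H2-Ea-ps, Pttg1, Mela, Actc1 and Tmem45b are among the genes with strains far beyond DBA/2J.

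Called genes were compared in pairs for the parental side that each BXD strain took. RefSeq gene order and the numbering of probesets placed 241 of the called genes on a chromosome. In pairs 1 to 10 genes apart (28 pairs) the genes were on matching sides in a median of 32.5 of 40 strains on CD. The median was 29 for pairs 11 to 50 genes apart (97 pairs), 27 for 51 to 200 (242 pairs), 23 for 201 to 500 (366 pairs), 21 beyond 500 (1077 pairs) and 20 for pairs on different chromosomes (27110 pairs). Fbxw11 and Gpr75, 44 genes apart, were on matching sides in 40 of 40 strains, although Fbxw11 had its higher level in C57BL/6J and Gpr75 in DBA/2J. Alad and its neighbour Hdhd3, 1 gene apart and both higher in DBA/2J, matched in 39 strains. Nnt and the transcript Gm7120, 4 genes apart and opposite in direction, matched in 30. Rbp7 and Gm572, 20 genes apart and also opposite in direction, matched in 36. Other close pairs matched in few strains, with a lowest count of 13 within 10 genes (Ptprm and Lrrc30, 9 apart) and of 6 at 11 to 50 genes (Gm7730 and Slc25a42, 14 apart), and Mcpt2 and Fam158a, 34 apart, matched in 14. Of the placed genes 47 (19.5%) had another called gene within 10 genes. Pairs share arrays and strains, so no test was made.

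**Figure D5:**
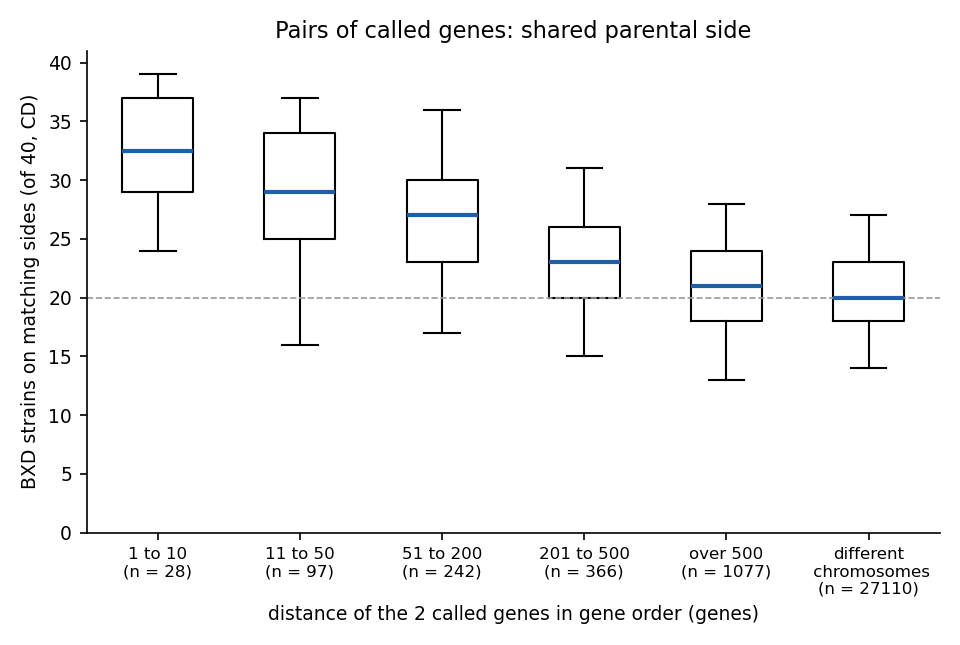
Number of the 40 BXD strains in which a pair of called genes lay on matching parental sides on CD (vertical axis), by the distance of the pair in gene order (horizontal axis, with the number of pairs). Boxes span the quartiles with the median in blue, whiskers the 5th to 95th percentile, and the dashed line stands at 20 strains, the median of pairs on different chromosomes.

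Genes at which the strains went beyond both parents were, by the way they were chosen, genes at which the parents were close. The 6 with the most strains beyond, on the mean of both diets, are given as a description. Stip1, a co-chaperone that links Hsp70 to Hsp90, was 11.31 and 11.14 in the C57BL/6J CD and HFD arrays and 11.06 and 11.34 in the DBA/2J arrays. Of 35 BXD strains 32 lay below the lower parent by more than the margin. Hsph1, a nucleotide exchange factor of the Hsp110 family, was 10.70 and 10.54 against 10.44 and 10.89, with 27 strains below and 1 above. Myod1, the myogenic factor, was 10.41 and 9.85 against 10.09 and 10.12, with 23 strains below, and its highest BXD CD array was 10.05, lower than both parental CD arrays. Arhgap10, a GTPase-activating protein, had 25 strains below and Babam1, of the BRCA1-A complex, had 24 below. Slc6a6, the taurine transporter, had 24 strains above the higher parent and none below, at parental levels of 10.85 and 10.85 in C57BL/6J and 10.81 and 10.95 in DBA/2J. All 4 parental arrays were of batch 1 whereas the BXD arrays came from 2 batches, and the part of batch in these counts was not tested.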

How the data were processed

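RNA of quadriceps was measured on Affymetrix Mouse Gene 1.0 ST arrays, 1 a strain and diet. The authors deposited a score for each probeset, with a mean of 8.0 and an SD of 2.0 on every array. The submitters' processing notes name Affymetrix Expression Console, and the summarization, log base and genome build are not given in the sources used here. The scores were fitted in limma 3.58.1 with lmFit and eBayes, with a coefficient per strain, diet and batch over all 79 arrays, which left 35 residual degrees of freedom, and the contrast was C57BL/6J minus DBA/2J at a Benjamini-Hochberg adjusted p below 0.05. Errors after ± are standard errors. The design had assumed log-scale values, and the scores were treated as such. Precision is limited by the number of arrays, since arrays have no read depth. Probes follow the C57BL/6J reference genome. A DBA/2J variant under a probe can lower the signal, and its part in any difference was not tested, since probe sequences were not used here.

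A gene with several probesets was represented by that with the highest mean. Of 22335 symbols, 18783 were current and 2385 were synonyms in RefSeq GRCm38.p6, used for names and gene order. The genes named were the 12 with the largest difference in each direction among called genes with the same sign in both diets, every known difference listed, the called members of each other list or else the member with the largest difference, the 6 with the most strains beyond the parents, the 5 with the smallest p for the diet response and both label checks. Further list members were added for their place in a pathway. Some results for genes named by these rules are not reported here. Members and lists were chosen with earlier results of these data known. The fitting step was tested on simulated data.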

Additional observations from a re-analysis of the deposited data

How the results depend on the processing

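The number of called probesets between the parents was 447. It was 242 with the strains whose arrays are both in batch 1, 4 with the 4 parental arrays alone, 0 by the methods' t-test after Benjamini-Hochberg adjustment and 1889 by it unadjusted, where limma gave 2956 at an unadjusted p below 0.05. With a parental array left out it ranged from 149 to 397. Without the diet term, with the coefficient per strain kept, 334 probesets were called, all among the 447. It was 375 with arrays centred on the median, 220 of them in favour of C57BL/6J, and from 432 to 481 under the other settings. On CD alone 181 were called in place of 114 when dim probesets were left out. The diet response gave 0 calls under all 7 settings tried. The median count of BXD CD arrays beyond C57BL/6J, 0 with a margin of 2 residual SDs, was 1 with 1 SD and 5 with none. Beyond DBA/2J, also 0, it was 1 with median centring, 2 with 1 SD and 7 with no margin. No named gene changed sign past the threshold. All 24 genes of the largest differences kept their call with median or quantile normalization, limma-trend or without BXD63. The number that lost it was 24 with the parental arrays alone, 6 in the batch 1 strains, 3 without the diet term and 1 without the batch term. The causes were not tested. With 2 arrays a strain, pooled animals and a spread borrowed from the BXD strains, the error of a parent was not measured directly.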

Other observations

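Other called genes of muscle metabolism, chosen here after their values were seen, are given as values, with no count of other genes of their pathways. Bcat2, which starts the breakdown of leucine, isoleucine and valine, was 10.72 and 10.40 in the C57BL/6J CD and HFD arrays against 10.02 and 9.83 in the DBA/2J arrays. Ivd, the isovaleryl-CoA dehydrogenase of the leucine pathway, was 11.62 and 11.22 against 10.82 and 10.58, and Aldh4a1, of proline breakdown, was 9.98 and 9.64 against 9.23 and 9.02. Slc7a5, a carrier of large neutral amino acids, was higher in DBA/2J, at 9.51 and 8.96 against 8.43 and 8.57. Their limma adjusted p were 0.00125, 6.34e-04, 0.00143 and 0.0346. Park2, the ubiquitin ligase parkin, was 9.23 and 9.46 in C57BL/6J against 10.33 and 10.52 in DBA/2J (1.08 units, limma adjusted p = 1.51e-09), and all 35 BXD strains kept their side. Pink1, the kinase that acts on parkin, was 12.46 and 12.27 in C57BL/6J against 11.98 and 11.97 in DBA/2J (0.39 units, adjusted p = 0.0149, limma), and 27 strains kept their side. Ucp2, an uncoupling protein, was higher in DBA/2J by 0.90 units (limma adjusted p = 0.0445), and Nos1, the neuronal nitric oxide synthase of muscle, was higher in C57BL/6J by 0.90 units (limma adjusted p = 0.00138). Park2, Aldh4a1 and Nos1 kept their call without each of the 4 parental arrays. Ivd lost it without the C57BL/6J CD array (adjusted p = 0.0555), Bcat2 without that (0.140) or the DBA/2J HFD array (0.0938), and Pink1 and Slc7a5 without any but the C57BL/6J HFD array, with adjusted p of up to 0.423 and 0.688. Ucp2 lost it without any of the 4, with adjusted p from 0.0955 to 0.446 (limma).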
